A study of Mus musculus with 9 samples.

Results

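Aortas taken after 28 days of angiotensin II (Ang II) were compared with aortas taken after 14 days, across every gene in the count tables. The comparison uses 6 of the 9 RNA-seq libraries of the series, 3 titled as 28 days and 3 titled as 14 days, chosen by those titles alone. The account of the surgery in the design text gives harvest at 28 days alone, while its line on the samples names both times. The remaining 3 libraries, from sham controls, enter the fit and are printed as the reference level. All 9 come from the suprarenal abdominal aorta of mice with an ApoE knock-out, so the controls carry the same deletion. Ang II was given at 1000 ng/kg/min by an osmotic pump, and the labels give no day for the sham aortas. The sham mice received saline, per the design text. The titles begin with the word muscle while the source is given as aorta, and the labels give neither the age nor the sex of the mice, nor whether each sequenced aorta had an aneurysm. Nothing in the labels says that the libraries came from separate mice, so p-values measure the spread between these libraries, which may be technical.

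Ang II is a vasoconstrictor peptide, and its infusion into mice that lack apolipoprotein E is a standard way to induce aneurysm of the abdominal aorta. The wall of the aorta is held by elastic fibres and collagens made mainly by smooth muscle cells and fibroblasts. In the aneurysm, smooth muscle cells lose contractile proteins, leukocytes enter the wall, and proteases that cut matrix are released. The tissue around the vessel in mice includes brown and white fat, nerves, lymph nodes and the muscle of the diaphragm and back, so a dissected aorta can carry RNA of each.

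The libraries held 9609690 to 14923936 expected counts, 14741 of 18830 listed genes passed the filter on low counts, and values are given as CPM (TMM-scaled counts relative to the size of the library). Values in a group are always in the order of replicates 1, 2 and 3. Acta2, smooth muscle actin and a defining marker of the vessel wall, was at 957 CPM or more in every library. The targeted gene, Apoe, had 22.5, 87.5 and 70.3 CPM in sham, 162, 648 and 159.7 at 14 days and 23, 171 and 269.8 at 28 days (Entrez 11816, GRCm38.p6 chromosome 7, 19696244 to 19701310). The files give counts per gene, so which part of Apoe the reads cover is not known and these values do not check the knock-out.

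Several libraries stood apart from others of their group, in genes of tissues beside the vessel wall. Skeletal muscle genes were high in 28-day replicates 1 and 2, and nerve genes were high in sham replicate 2, 14-day replicate 1 and 28-day replicates 2 and 3. Macrophage genes were highest in 14-day replicate 2, and B cell genes in 14-day replicate 3 and 28-day replicate 2. In bulk tissue, fewer cells of a type and less RNA per cell cannot be told apart.

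By edgeR's quasi-likelihood test no gene passed an adjusted p of 0.05 between 28 and 14 days (0 of 14741, 0%), and the lowest adjusted p was 0.77 (0.0597 without 28-day replicate 3 and 0.113 without 14-day replicate 2, again with 0 genes called). At an unadjusted p under 0.05 there were 903 genes (6.13% of those tested), 569 higher (3.86%) and 334 lower (2.27%) at 28 days. limma-voom also called 0 genes. DESeq2, run as an alternative on the same counts, called 118 genes (0.8%), 87 higher (0.59%) and 31 lower (0.21%). With each library left out in turn the DESeq2 count ran from 59 (without 28-day replicate 1) to 214 (without 28-day replicate 2), and its lower part ran from 10 (without 28-day replicate 3) to 69 (without sham replicate 2). The 28-day and 14-day libraries did not overlap in CPM for 1483 genes (10.1%), 641 with all 28-day libraries above (4.35%) and 842 with all below (5.71%). The median log2 fold change of all tested genes was -0.05. Since edgeR called nothing, values below are descriptions, and a gene is said to be lower or higher by a test only where DESeq2 is named.

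The 87 genes that DESeq2 found higher at 28 days were mostly genes that 28-day replicates 1 and 2 carried, and 19 of them were among the 20 genes of the skeletal muscle list. In 69 of them the CPM of 28-day replicate 3 was under 10% of that of replicate 1, in 7 between 10% and 50%, and in 11 at least 50%. Without 28-day replicates 1 and 2, DESeq2 called 5 genes, all lower at 28 days, and 1 of the 118 was among them, Fn1. That fit leaves a lone 28-day library, which is assumed to vary like the other groups.

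The 31 genes that DESeq2 found lower at 28 days had a different layout. In 30 of them all 28-day libraries lay below all 14-day libraries and in 24 they also lay below all sham libraries, where 9.44% of all genes had their 28-day libraries. Of the 31, 5 were called in each of the 9 DESeq2 fits that left out 1 library, Eln, Fn1, F2r, Pde3a and Pi15. The same held for 9 of the 87 higher genes, Acta1, Atp2a1, Myh1, Myh2, Myl1, Mylpf, Tnnc2, Tnni2 and Tnnt3, which all encode proteins of skeletal muscle fibres.

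Pde3a, a phosphodiesterase that breaks down cAMP and is held back by cGMP in vascular smooth muscle, had 91, 59.1 and 63.3 CPM at 14 days and 32.5, 29.7 and 34.6 at 28 days, against 108, 79.2 and 104 in sham (Entrez 54611, GRCm38.p6 chromosome 6, 141249269 to 141506862). The 28-day libraries lay close together and below both other groups, and 14-day replicate 1 lay within the sham range. The log2 fold change from 14 to 28 days was -1.14 ± 0.21 (edgeR adjusted p = 0.77, DESeq2 adjusted p = 0.000169). Pi15, a secreted protein of the peptidase inhibitor family, had 84.1, 56 and 76.5 CPM at 14 days and 28, 15.2 and 20.9 at 28 days, against 129.6, 60.4 and 104 in sham (Entrez 94227, GRCm38.p6 chromosome 1, 17601901 to 17630939). Its 14-day libraries overlapped sham and its 28-day libraries did not, with a log2 fold change of -1.76 ± 0.34 between the times (DESeq2 adjusted p = 0.000262). From sham to 14 days the log2 fold changes were -0.45 ± 0.21 for Pde3a and -0.44 ± 0.33 for Pi15, smaller in size than those of the later interval.

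Fn1, which encodes the matrix protein fibronectin, and F2r, the thrombin receptor PAR1, took the other shape, high at 14 days and near sham at 28 days. Fn1 had 1440, 1411 and 1672 CPM in sham, 3775, 3543 and 3471 at 14 days and 1938, 841 and 1010 at 28 days (Entrez 14268, GRCm38.p6 chromosome 1, 71585473 to 71653280). All 14-day libraries lay above all sham libraries, and 28-day replicate 1 lay above sham while replicates 2 and 3 lay below it. The log2 fold change from 14 to 28 days was -1.51 ± 0.34 (DESeq2 adjusted p = 0.000677), after 1.25 ± 0.34 from sham to 14 days. F2r had 54.8, 39.2 and 54 CPM in sham, 97.2, 128 and 80.8 at 14 days and 52.2, 41.5 and 48 at 28 days (Entrez 14062, GRCm38.p6 chromosome 13, 95601780 to 95618466), and its sham and 28-day libraries overlapped. Its log2 fold change was -1.11 ± 0.22 between the times (DESeq2 adjusted p = 0.00165) and -0.06 ± 0.22 from sham to 28 days.

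Eln, which encodes elastin, the core of the elastic fibre, had 3069, 4511 and 3816 CPM at 14 days and 1160, 658 and 800.2 at 28 days (Entrez 13717, GRCm38.p6 chromosome 5, 134702595 to 134747368). The sham libraries spread widely, at 4222, 970.3 and 3111 CPM, and sham replicate 2 was within the range of the 28-day libraries. The log2 fold change from 14 to 28 days was -2.12 ± 0.53 (edgeR adjusted p = 0.77, DESeq2 adjusted p = 0.00338), or 4.35-fold lower.

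**Figure D1:**
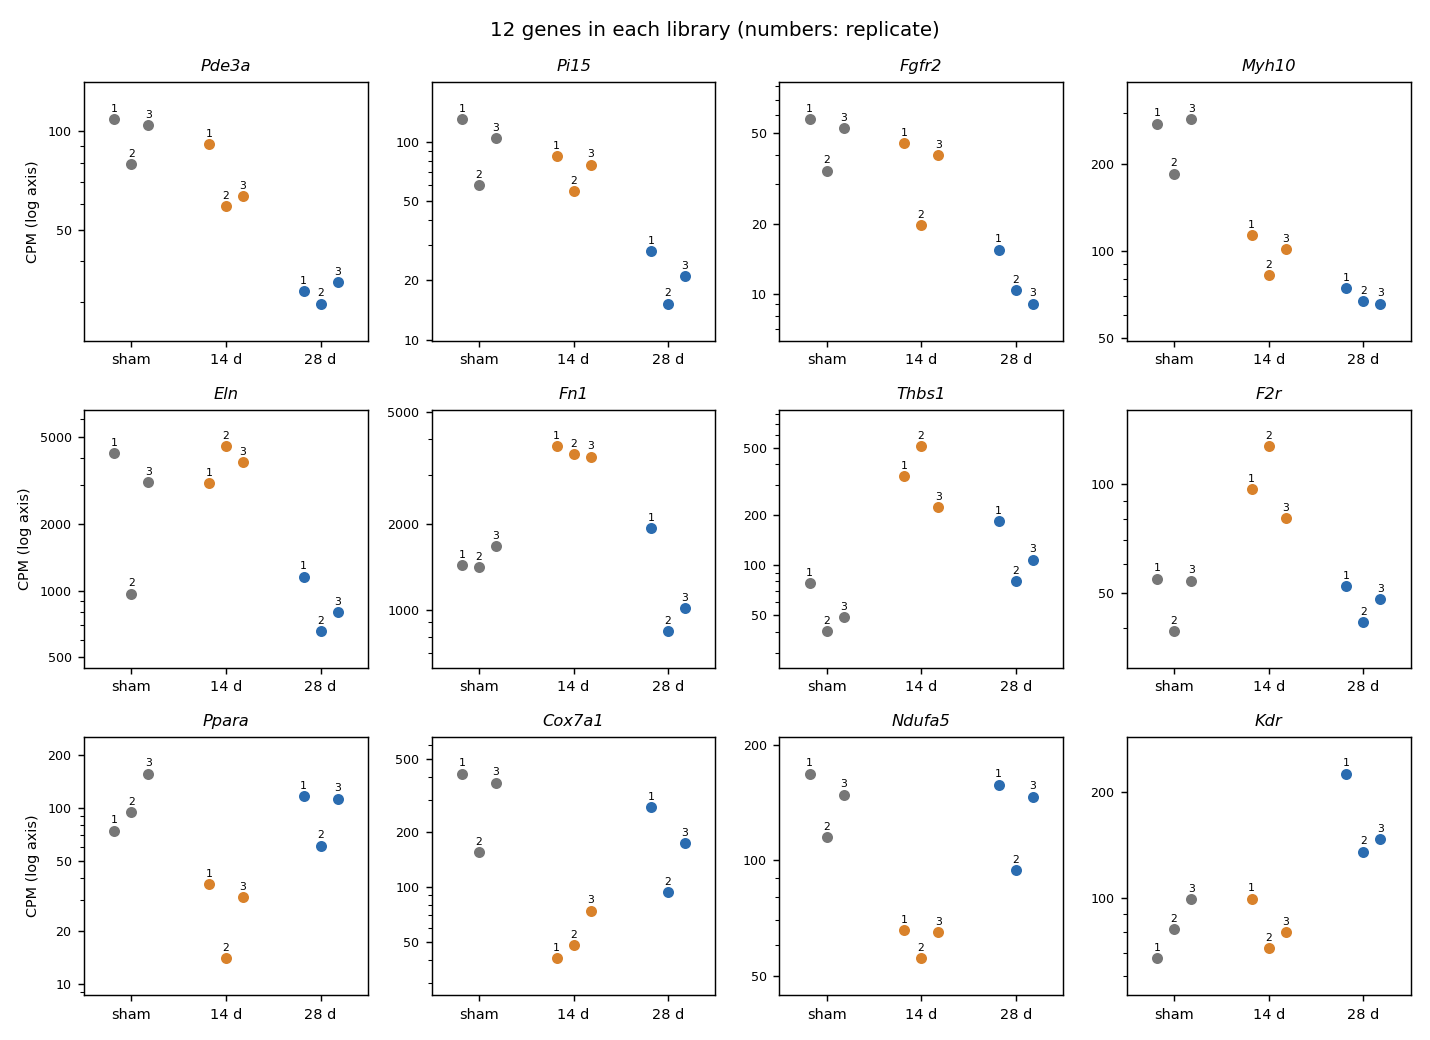
CPM on a log axis for 12 genes in each library, grouped as sham, 14 days and 28 days, with the replicate number beside each point. In Pde3a, Pi15, Fgfr2, Myh10 and Eln the 28-day libraries are the lowest of the 6 Ang II libraries, Fn1, Thbs1 and F2r are high at 14 days, and Ppara, Cox7a1 and Ndufa5 are low at 14 days.

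Other genes that DESeq2 found lower at 28 days, each with an edgeR adjusted p of 0.77, act in growth factor signalling, cell adhesion and gene control. Hbegf, a ligand of the EGF receptor, had 22.4, 19.3 and 13.4 CPM at 14 days and 8.98, 7.6 and 6.61 at 28 days (sham 16.1, 14.2 and 16, log2 -1.25 ± 0.24, DESeq2 adjusted p = 0.00122). Fgfr2, a receptor for fibroblast growth factors, had 45.3, 19.9 and 40.1 CPM at 14 days and 15.5, 10.3 and 9.04 at 28 days (sham 57.5, 34.3 and 52.5, log2 -1.60 ± 0.36, DESeq2 adjusted p = 0.00812). Fat1, a giant cadherin, had 130.3, 192 and 112 CPM at 14 days and 72.8, 38.2 and 56.5 at 28 days (sham 158, 92.9 and 145, log2 -1.38 ± 0.33, DESeq2 adjusted p = 0.00994). In these 3 genes the times did not overlap and the 28-day libraries were below every sham library as well. Foxs1, a forkhead transcription factor of perivascular cells, had 23.1, 26.3 and 13.3 CPM at 14 days and 8.32, 7.24 and 8.43 at 28 days (log2 -1.39 ± 0.29), and Fstl3, a secreted inhibitor of activins, had 81.4, 55.2 and 76.8 CPM at 14 days and 31, 15.6 and 17 at 28 days (log2 -1.75 ± 0.44). Sost, which encodes the Wnt inhibitor sclerostin, had 414, 114 and 320.2 CPM in sham, 89.6, 25.9 and 133 at 14 days and 24.6, 12.8 and 9.79 at 28 days (log2 -2.40 ± 0.70 between the times, DESeq2 adjusted p = 0.0333). Ccdc68 and Atp8b2 complete the 12 genes below 0 with the smallest p among those with a mean of at least 10 CPM, at log2 fold changes of -1.74 ± 0.40 and -0.46 ± 0.12. Chosen after their values were seen, Itgb3, a subunit of the vitronectin receptor, and Pcdh7, a protocadherin, had log2 fold changes of -1.13 ± 0.29 and -1.12 ± 0.29 with no overlap between the times.

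More of the 31 genes, chosen here after their values were seen, act on the actin cortex and in development. Msn, moesin, which ties actin to the cell membrane, had 603, 468 and 518 CPM in sham, 693, 686 and 759.9 at 14 days and 499.7, 529 and 439.9 at 28 days (log2 -0.54 ± 0.19, DESeq2 adjusted p = 0.00902). Wdr1, which speeds the disassembly of actin filaments, had 261, 206 and 234 CPM in sham, 280.1, 325 and 263 at 14 days and 185, 204 and 194 at 28 days (log2 -0.57 ± 0.17, DESeq2 adjusted p = 0.0127). In both, the 14-day libraries lay above all sham libraries, and in Wdr1 the 28-day libraries lay below them. Foxc2, a forkhead factor of vessel development, had 34.5, 42.9 and 22.9 CPM at 14 days and 13.1, 7.81 and 13.2 at 28 days (sham 60.4, 22 and 44, log2 -1.56 ± 0.41), and Wnt16, a Wnt ligand, had 11.5, 2.67 and 7.4 CPM at 14 days and 1.64, 1.65 and 1.29 at 28 days (sham 12.2, 4.86 and 10.7, log2 -2.23 ± 0.58). Jund, a subunit of the factor AP-1, had 167, 182 and 195 CPM at 14 days and 132, 128 and 136 at 28 days (sham 196, 159 and 199, log2 -0.45 ± 0.15, DESeq2 adjusted p = 0.0333). The 28-day libraries of these 3 genes lay below every other library.

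The 11 genes that DESeq2 found higher at 28 days with 28-day replicate 3 at no less than 50% of replicate 1 were Depp1, Tbc1d4, Ndufa5, Rtp3, Ppara, Pus10, Atp5mpl, Esrrg, Kdr, Btnl9 and Chchd10, named after their values were seen. In 7 of the 11 all 14-day libraries lay below all sham libraries (13.5% of all genes). Genes picked as higher at 28 than at 14 days tend to have low 14-day values, so this count is not separate evidence. Esrrg, an orphan nuclear receptor of oxidative tissues, had 5.54, 4.65 and 7.74 CPM in sham, 1.54, 1.23 and 2.78 at 14 days and 6.79, 5.02 and 5.32 at 28 days (log2 1.62 ± 0.40, DESeq2 adjusted p = 0.0253). Atp5mpl, a small subunit of mitochondrial ATP synthase, had 139, 112 and 139 CPM in sham, 69.2, 71.2 and 72.6 at 14 days and 142, 93.4 and 122 at 28 days (log2 0.75 ± 0.19, DESeq2 adjusted p = 0.0181). Ndufa5, a subunit of respiratory complex I, had 168, 115 and 148 CPM in sham, 65.7, 55.6 and 65.1 at 14 days and 157, 94.2 and 146 at 28 days (log2 1.09 ± 0.24, DESeq2 adjusted p = 0.0028). In these 3 genes 14 days was the low point and the sham and 28-day libraries overlapped. Btnl9, a butyrophilin-like protein, overlapped sham at 14 days and lay above it at 28 days (4.9, 7.01 and 6.76 CPM in sham, 7.78, 2.59 and 2.92 at 14 days and 25.5, 11.3 and 15.5 at 28 days, log2 1.97 ± 0.50). No gene of the 11 was called without 28-day replicates 1 and 2.

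Genes of fibrillar collagens and fibrotic matrix were, as a list, above sham at 14 days and nearer to it at 28 days. Of the 20 genes 18 had a log2 fold change below 0 from 14 to 28 days, with a median of -0.74 (-0.20 without 14-day replicate 2), and 3 had all 28-day libraries below all 14-day ones, against 5.71% of all genes. DESeq2 found 2 of them lower, Fn1 and Tnc (0.21% of all genes). The median from sham was 1.01 at 14 days and 0.45 at 28 days. Tnc, which encodes tenascin C, had 110.3, 69.4 and 101 CPM in sham, 215, 105 and 191 at 14 days and 78.6, 82.5 and 52.9 at 28 days (log2 -1.26 ± 0.32, DESeq2 adjusted p = 0.0265). The main collagen genes did not separate the times. Col1a1 had 2335, 6939 and 1300 CPM at 14 days and 2248, 1381 and 2498 at 28 days (sham 1037, 495 and 1202, log2 -0.79 ± 0.63), and Col3a1 had 3560, 6300 and 1761 CPM at 14 days and 3114, 1436 and 3487 at 28 days (sham 1467, 886 and 1806, log2 -0.53 ± 0.54). In both, 14-day replicate 2 was the highest of the 9 libraries, and without it the log2 fold changes were 0.17 and 0.01.

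The elastic fibre list had 14 of 16 members below 0, with a median of -0.63 (-0.26 without 14-day replicate 2). The times did not overlap in 5 (31.2%, against 5.71% of all genes), Eln, Fbln5, Emilin1, Efemp2 and Ltbp3. Fbln5, which links elastin to cells, had 353, 364 and 349 CPM at 14 days and 240.5, 118 and 142 at 28 days (sham 363, 151 and 318, log2 -1.09 ± 0.37). Its 28-day libraries lay below all 14-day libraries, while sham spanned both. Emilin1 and Efemp2, which help to assemble the fibre, had log2 fold changes of -1.17 ± 0.46 and -0.93 ± 0.42. Genes that modify collagen, 17 in number, were all below 0, with a median of -0.62 (-0.21 without 14-day replicate 2). Of the 17, 1 did not overlap (5.9%, against 5.71% of all genes), Loxl3, a lysyl oxidase (78.5, 189 and 55.6 CPM at 14 days, 44.5, 32 and 53.7 at 28 days). Lox, the main enzyme of collagen and elastin crosslinking, overlapped between the times (218, 505 and 167 CPM at 14 days and 205, 99 and 213 at 28 days, log2 -0.78 ± 0.50).

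Proteases and their inhibitors had 24 of 26 tested members below 0, with a median of -0.72, after 1.53 from sham to 14 days. The times did not overlap in 5 (19.2%, against 5.71% of all genes), among them Timp1, Plaur, Ctsl and Mmp8. Without 14-day replicate 2 the median was -0.06. Timp1, an inhibitor of matrix metalloproteinases, had 59.6, 7.08 and 35.7 CPM in sham, 105, 367 and 111 at 14 days and 65.1, 33.6 and 77.3 at 28 days (log2 -1.73 ± 0.79). Its times did not overlap, and 14-day replicate 2 was the highest of the 9 libraries. Mmp2, Mmp9 and Mmp12 overlapped between the times. Mmp2, a gelatinase of fibroblasts and smooth muscle, had 324, 999 and 190.2 CPM at 14 days and 483, 205 and 478 at 28 days (sham 116, 121 and 164), and Mmp9, a gelatinase of leukocytes, had 11.8, 44.8 and 8.82 CPM at 14 days and 25.7, 16.6 and 28.5 at 28 days (sham 6.07, 7.44 and 4.98). Mmp12, the elastase of macrophages, had 77.6, 1190 and 138 CPM at 14 days and 252, 198 and 154 at 28 days (sham 259, 1.07 and 41), and its log2 fold change of -1.22 ± 1.53 became 0.91 without 14-day replicate 2.

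By their median, contractile smooth muscle genes were below sham at 14 days and further below at 28 days. Of 22 members, 18 were below 0 from 14 to 28 days, with a median of -1.11, and the median from sham was -0.88 at 14 days and -2.0 at 28 days. The list level, the mean log2 CPM of its members, was 9.83, 8.33 and 9.28 in sham, 9.05, 6.96 and 8.56 at 14 days and 8.34, 7.11 and 6.72 at 28 days. The times overlapped, since 14-day replicate 2 lay within the range of the 28-day libraries. Sham overlapped both times, since sham replicate 2 lay below 14-day replicates 1 and 3 and just below 28-day replicate 1. Of the 22 genes 2, Cald1 and Cnn2, had all 28-day libraries below all 14-day ones (background 5.71%), and 15 of 22 had all 28-day libraries below all sham libraries, against 9.44% of all genes. At 14 days 2 of the 22 lay below all sham libraries, against 13.5% of all genes. Of the 4 genes above 0, Des, Tpm1 and Tpm2 are also made in skeletal muscle, whose genes were high in 28-day replicates 1 and 2. Des, which encodes desmin, had 293, 41.9 and 253 CPM at 14 days and 869, 300.3 and 62.5 at 28 days (sham 127, 120 and 96.2). Without those 2 libraries the median of the list was -1.87, and without the 3 libraries richest in nerve genes it was -0.62.

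Acta2 had 13380, 4653 and 10310 CPM in sham, 8322, 1992 and 6010 at 14 days and 2814, 1125 and 957 at 28 days (Entrez 11475, GRCm38.p6 chromosome 19, 34240336 to 34255585), a log2 fold change of -1.74 ± 0.68 between the times (edgeR adjusted p = 0.77). Myh11, the smooth muscle myosin heavy chain, had 5692, 1810 and 3919 CPM in sham, 2679, 304 and 1795 at 14 days and 1078, 378 and 328 at 28 days (log2 -1.42 ± 0.83). Tagln and Cnn1, which bind actin in the contractile apparatus, had log2 fold changes of -1.58 ± 0.70 and -1.68 ± 0.80. In Acta2, Tagln and Cnn1, 14-day replicate 2 lay within the range of the 28-day libraries, and in Myh11 just below it, while 14-day replicates 1 and 3 lay above it in all 4. Itga8, an integrin subunit of smooth muscle, was far from sham already at 14 days, at 347, 66.3 and 275 CPM against 1260, 371 and 996, and had 141, 67.4 and 52.7 CPM at 28 days. Flna and Cald1, also of the contractile list, had log2 fold changes of -1.28 ± 0.55 and -0.97 ± 0.43.

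Myocd, the coactivator that drives contractile genes, had 89.7, 38.3 and 80.7 CPM in sham, 48.2, 8.86 and 30.1 at 14 days and 15, 4.59 and 6.15 at 28 days (log2 -1.77 ± 0.69). Here too 14-day replicate 2 lay among the 28-day libraries. Klf4, a repressor of the contractile state, overlapped in all groups (58.2, 34.4 and 36.5 CPM at 14 days and 69.7, 36.6 and 50.7 at 28 days, sham 24.4, 46.4 and 79.9). The Notch targets Heyl and Hey2 had log2 fold changes of -1.18 ± 0.51 and -1.25 ± 0.58. The Notch list did not fall as a whole, with 7 of 13 members above 0 and 6 below. Its median was 0.14 (-0.17 to 0.22 over the alternative settings). In the non-muscle cytoskeleton list, 13 of 14 members were below 0, with a median of -0.54. All 28-day libraries lay below all 14-day ones in 6 (42.9%, against 5.71% of all genes), Actb, Actg1, Actn1, Myh9, Myh10 and Vim. Myh10, non-muscle myosin IIB, had 275, 185 and 285 CPM in sham, 113, 82.3 and 102 at 14 days and 74.2, 67.3 and 65.8 at 28 days (log2 -0.52 ± 0.21). Actg1, cytoplasmic actin, had 1639, 1679 and 1467 CPM in sham, 2117, 3150 and 1958 at 14 days and 1506, 1640 and 1698 at 28 days, so that the 14-day libraries were above both other groups. Myh10 was thus lower at each later time, while Actg1 was high at 14 days and within or near the sham range at 28 days.

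TGF-beta signalling genes had 13 of 16 members below 0, with a median of -0.55 (-0.21 without 14-day replicate 2). The times did not overlap in 5 (31.2%, against 5.71% of all genes), Thbs1, Smad7, Tgfb2, Tgfbr1 and Skil. All 28-day libraries lay below all 14-day libraries in list level, at 6.55, 6.59 and 6.52 and 6.28, 5.88 and 5.92 log2 CPM (sham 6.27, 5.70 and 6.27). Thbs1, a thrombospondin that activates latent TGF-beta, had 78, 40.5 and 48.9 CPM in sham, 339, 512 and 222 at 14 days and 183, 80.6 and 108 at 28 days (log2 -1.53 ± 0.43, DESeq2 adjusted p = 0.0451). Its 28-day libraries lay between the other groups. Tgfb1 overlapped between the times (84.1, 297 and 144 CPM at 14 days and 81.2, 119 and 97.3 at 28 days, sham 67.6, 35.5 and 53.2). Smad7 and Ccn2, targets of the pathway, had log2 fold changes of -0.98 ± 0.31 and -1.41 ± 0.57, and Tgfb2 had -1.11 ± 0.46. In the PDGF, FGF and EGF family list, 16 of 19 tested members were below 0. DESeq2 called Hbegf and Fgfr2 lower (0.21% of all genes). The times did not overlap in 6 of the 19 (31.6%, against 5.71% of all genes).

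Of 16 genes of coagulation and thrombin receptors 13 were below 0, with a median of -0.39. All 28-day libraries lay below all 14-day ones in 4 of the 16 (against 5.71% of all genes), F2r, Procr, F5 and Serpine2. Procr, the endothelial receptor of protein C, had 42.6, 47 and 32.4 CPM at 14 days and 29.6, 26.5 and 29.5 at 28 days (sham 39.9, 14.1 and 23.2, log2 -0.51 ± 0.34), and Serpine2, an inhibitor of thrombin on cell surfaces, had 321, 270.2 and 424 CPM at 14 days and 245, 136 and 146 at 28 days (sham 578, 288 and 484, log2 -0.95 ± 0.35). Sham overlapped both times in Procr, and in Serpine2 all 28-day libraries were below all sham libraries. Basement membrane genes, 14 in number, had 10 below 0 with a median of -0.46 (-0.25 without 14-day replicate 2), and their median from sham was -0.03 at 14 days and -0.25 at 28 days. Among them Col18a1, the source of endostatin, had 1250, 462 and 1087 CPM in sham, 889.7, 579.9 and 843 at 14 days and 462, 188 and 159.8 at 28 days (log2 -1.51 ± 0.51). Cacna1c, the pore of the L-type calcium channel, was the member of the ion channel list without overlap (6.2%, against 5.71% of all genes). It had 41.1, 22 and 23.7 CPM at 14 days and 21.3, 12.9 and 16.3 at 28 days (sham 79.3, 25.2 and 47.7, log2 -0.78 ± 0.43). That list, with 16 genes, had a median of 0.01 between the times (-0.24 to 0.34 over the alternative settings) and lay below sham at both (-0.95 and -0.88).

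NF-kB targets, inflammatory genes switched on by the transcription factor NF-kB, which the title of the series names, were high at 14 days and in part still high at 28 days. Of 23 tested members, 21 were below 0 from 14 to 28 days, with a median of -0.88. The times did not overlap in 4 (17.4%, against 5.71% of all genes), Vcam1, Ptgs2, Cxcl1 and Cxcl2. The list level was 3.29, 1.99 and 2.83 log2 CPM in sham, 4.26, 4.83 and 4.22 at 14 days and 3.52, 3.81 and 3.98 at 28 days. All 28-day libraries lay below all 14-day libraries and above all sham libraries. Without 14-day replicate 2 the median was -0.25.

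Vcam1, which holds leukocytes to the endothelium, had 132, 29.8 and 61.3 CPM in sham, 154, 181 and 158 at 14 days and 75.1, 86 and 71.5 at 28 days (log2 -1.08 ± 0.46). The times did not overlap, and the 28-day libraries lay within the sham range. Icam1, another adhesion molecule, did overlap (74.5, 75.5 and 83.8 CPM at 14 days and 51.5, 82.3 and 47.5 at 28 days, sham 45.6, 18.9 and 39.4). Ptgs2, the inducible cyclooxygenase COX-2, had 8.48, 16.6 and 11.3 CPM at 14 days and 5.25, 5.8 and 3.27 at 28 days (sham 7.57, 2.65 and 4.8, log2 -1.34 ± 0.45). Cytokine and chemokine genes were at low levels, Tnf at 2.59, 5.47 and 4.89 CPM at 14 days and 0.985, 4.23 and 2.35 at 28 days, Il1b at 3.99, 16.6 and 4.55 CPM at 14 days and 2.96, 3.65 and 4.48 at 28 days, Ccl2 at 12.9, 48 and 5.77 CPM at 14 days and 4.93, 3.08 and 15.4 at 28 days and Cxcl10 at 24.9, 25.1 and 5.77 CPM at 14 days and 4.16, 8.81 and 17.2 at 28 days. In these 4 genes the times overlapped. Sod2, a mitochondrial antioxidant enzyme among the targets, went the other way, with 432, 393 and 740.1 CPM in sham, 244, 159 and 256 at 14 days and 539.8, 246 and 498 at 28 days (log2 0.96 ± 0.38).

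Of the 14 genes of NF-kB subunits and inhibitors 13 were below 0, with a median of -0.28 and a range of -0.66 to 0.19. The median depended on single libraries, at -0.09 without 14-day replicate 3, -0.10 without 28-day replicate 1, -0.17 without 14-day replicate 2, -0.49 without 14-day replicate 1 and -0.60 without 28-day replicate 2, and was -0.88 without the 3 libraries richest in nerve genes. Nfkb1 (p105/p50) had 46.1, 47.4 and 54.4 CPM in sham, 73.3, 94.8 and 118 at 14 days and 71.7, 91.4 and 65.2 at 28 days (log2 -0.33 ± 0.21), and each Ang II library was above each sham library. Rela (p65) had 91.1, 110.4 and 122 CPM at 14 days and 90.6, 87.5 and 84.4 at 28 days (sham 90.2, 67.2 and 97.3, log2 -0.30 ± 0.18), with the 28-day libraries just below the 14-day ones. Nfkbia, the inhibitor IkB-alpha, had 67.2, 81.4 and 91.3 CPM at 14 days and 72.2, 96.7 and 68.6 at 28 days (sham 61.3, 41.3 and 50.4, log2 -0.01 ± 0.21). In the chemokine list 18 of 22 members were below 0, with a median of -0.86 that became -0.14 without 14-day replicate 2. The times did not overlap in 3 (13.6%, against 5.71% of all genes), Cxcl1, Cxcl2 and Cx3cl1.

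Macrophage genes were above sham at both times and did not separate the times. Of 24 members, 19 had all 14-day libraries above all sham libraries (12.6% of all genes) and 22 had all 28-day libraries above them (12.2%). From 14 to 28 days 23 were below 0, with a median of -0.97, but 0 had times without overlap. The median was 0.32 without 14-day replicate 2 and -1.49 without the nerve-rich libraries. The list level was 5.37, 4.11 and 4.97 log2 CPM in sham, 6.38, 8.10 and 6.36 at 14 days and 6.08, 6.55 and 6.94 at 28 days. Cd68, a lysosomal protein of macrophages, had 191, 1479 and 158 CPM at 14 days and 173, 202 and 282 at 28 days (sham 150.2, 11.7 and 42.4). Adgre1 (F4/80) had 54.2, 322 and 27.4 CPM at 14 days and 59.4, 62.3 and 91.9 at 28 days, Trem2 had 72.4, 696 and 56.7 CPM at 14 days and 96.4, 96.5 and 144 at 28 days and Spp1, osteopontin, had 221, 7426 and 764 CPM at 14 days and 575, 935 and 1513 at 28 days. In each, 14-day replicate 2 was the highest of the 9 libraries, and 28-day replicate 3 the next highest. The log2 fold changes of the 4 genes were below 0 with all libraries and 0.33, 0.81, 0.80 and 1.04 without 14-day replicate 2.

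The same library stood out for Hmox1, the heme oxygenase that is induced by heme, at 89, 4187 and 54.2 CPM at 14 days and 117, 287 and 506 at 28 days (sham 49.2, 14.5 and 31.8). Its log2 fold change of -2.25 ± 1.5 became 2.09 without 14-day replicate 2. Alpha-globin, Hba-a1, which has a near-identical copy that shares reads with it, had 517, 873 and 408 CPM at 14 days and 577, 174 and 326 at 28 days (sham 149.7, 159.8 and 168). Lyve1, a marker of resident vascular macrophages and lymphatic vessels, had 54.9, 14.2 and 84 CPM at 14 days and 47.7, 81.8 and 58.7 at 28 days, with its lowest value in 14-day replicate 2. Olr1, the receptor LOX-1 for oxidised LDL, was the gene of the lipid-laden list with the smallest p, at 6.52, 9.08 and 2.17 CPM at 14 days and 0.985, 0.717 and 1.44 at 28 days (sham 1.17, 0.143 and 0.801) and no overlap between the times. S100a8, of neutrophils, was at low levels (0.841, 4.03 and 1.7 CPM at 14 days and 2.96, 2.58 and 1.29 at 28 days).

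In the lipid-laden list 15 of 18 members were below 0, with a median of -1.01 that became 0.38 without 14-day replicate 2. Below without overlap lay 4 (22.2%, against 5.71% of all genes), Gpnmb, Cd9, Olr1 and Cd5l, and above lay 1 (5.6%, against 4.35%). Cd5l, an apoptosis inhibitor of tissue macrophages, had 315, 1.57 and 40.04 CPM in sham, 676, 79.8 and 343 at 14 days and 9.09, 68.5 and 19.2 at 28 days (log2 -3.50 ± 1.64). Here 14-day replicate 2 was the lowest of its group, unlike in the macrophage genes above, and 28-day replicate 2 came close to it. Cd36, the fatty acid and scavenger receptor that fat cells and endothelium also carry, lay above without overlap, at 742, 568 and 728 CPM at 14 days and 1625, 781 and 1218 at 28 days (sham 934, 838 and 1191, log2 0.83 ± 0.31).

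Lymphocyte genes were above sham at both times, with 18 of 19 T and NK cell genes and 13 of 13 B and plasma cell genes above all sham libraries at 14 days (12.6% of all genes), and 15 and 12 at 28 days (12.2%). The B and plasma cell list level was 0.39, -0.33 and -0.20 log2 CPM in sham, 2.04, 2.29 and 6.43 at 14 days and 1.98, 6.46 and 3.68 at 28 days. Its median from 14 to 28 days was -0.12, and it ran from -2.99 to 3.43 over the alternative settings. Cd79a, of the B cell receptor, had 11.6, 13 and 508 CPM at 14 days and 11.2, 344 and 43.4 at 28 days, against 2.24, 1 and 1.51 in sham. Cd3g, of the T cell receptor, had 6.31, 17.5 and 93.8 CPM at 14 days and 4.71, 30.6 and 13.4 at 28 days (sham 1.71, 1.07 and 1.25). The libraries high in B cell genes, 14-day replicate 3 and 28-day replicate 2, were also the highest in the lymph node list (3.76, 3.19 and 5.51 at 14 days, 3.97, 6.08 and 4.52 at 28 days), whose part in these values was not tested.

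Jchain, which joins antibody chains in plasma cells, was the B lineage gene with the smallest p, at 64.5, 60.2 and 70.7 CPM at 14 days and 19.6, 372 and 139.6 at 28 days, against 10.02, 4.51 and 3.47 in sham. Its 14-day libraries were close together while the 28-day libraries spread on both sides of them. Glycam1, a ligand of L-selectin made by the vessels of lymph nodes, had 2.52, 0.072 and 16.4 CPM at 14 days and 32.2, 248 and 33 at 28 days, with all 28-day libraries above all 14-day ones. Flt4 and Prox1, of lymphatic vessels, were likewise without overlap, at log2 fold changes of 0.42 ± 0.22 and 1.02 ± 0.74. Of the 14 tested members of the lymph node list, 3 lay above without overlap (21.4%, against 4.35% of all genes). The list as a whole had 7 members above 0 and 6 below, with a median of 0.15 (-0.96 to 0.98 over the alternative settings).

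MHC class II genes, which present antigen, were above sham in every Ang II library in all 10 members (12.6% of all genes at 14 days, 12.2% at 28 days). All 10 were below 0 from 14 to 28 days, with a median of -0.23 (-1.07 to 0.23 over the alternative settings) and 0 without overlap. H2-Aa had 218, 200.1 and 239 CPM in sham, 604, 794 and 1237 at 14 days and 428, 1083 and 758 at 28 days (log2 -0.22 ± 0.38), and as an H2 gene it may share reads with its relatives. Of 18 interferon response genes 13 at 14 days (12.6% of all genes) and 14 at 28 days (12.2%) lay above all sham libraries. Their median between the times was -0.27 (-0.65 to 0.15 over the alternative settings). Irf7, a transcription factor of the interferon response, had 142, 83.5 and 138 CPM at 14 days and 41.8, 50.2 and 126 at 28 days (sham 16.2, 27 and 22.3), and Oas1a, an antiviral enzyme of a family of close copies, had 39.5, 52.2 and 30.4 CPM at 14 days and 20.4, 19.7 and 37 at 28 days (sham 6.71, 5.87 and 8.28). In both, 28-day replicate 3 was within the 14-day range and replicates 1 and 2 were below it. Pycard, the inflammasome adaptor ASC, had 12.1, 40.3 and 25.2 CPM at 14 days and 9.19, 20.7 and 17.8 at 28 days (sham 5.54, 3.43 and 4.27).

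Cell cycle genes gave 22 of 22 members below 0, with a median of -0.77 (-0.30 without 14-day replicate 2, -1.5 without the nerve-rich libraries) and 0 without overlap. Mki67 had 3.62, 2.58 and 6.23 CPM in sham, 14.5, 54 and 31.8 at 14 days and 9.85, 27.9 and 21.5 at 28 days, and Top2a had 3.2, 2.58 and 4.18 CPM in sham, 12.9, 48 and 22.7 at 14 days and 7.55, 18 and 15.7 at 28 days. Both are made by dividing cells. The order of libraries was the same at the 2 genes, with 28-day replicate 1 the lowest Ang II library and 14-day replicate 2 the highest.

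**Figure D2:**
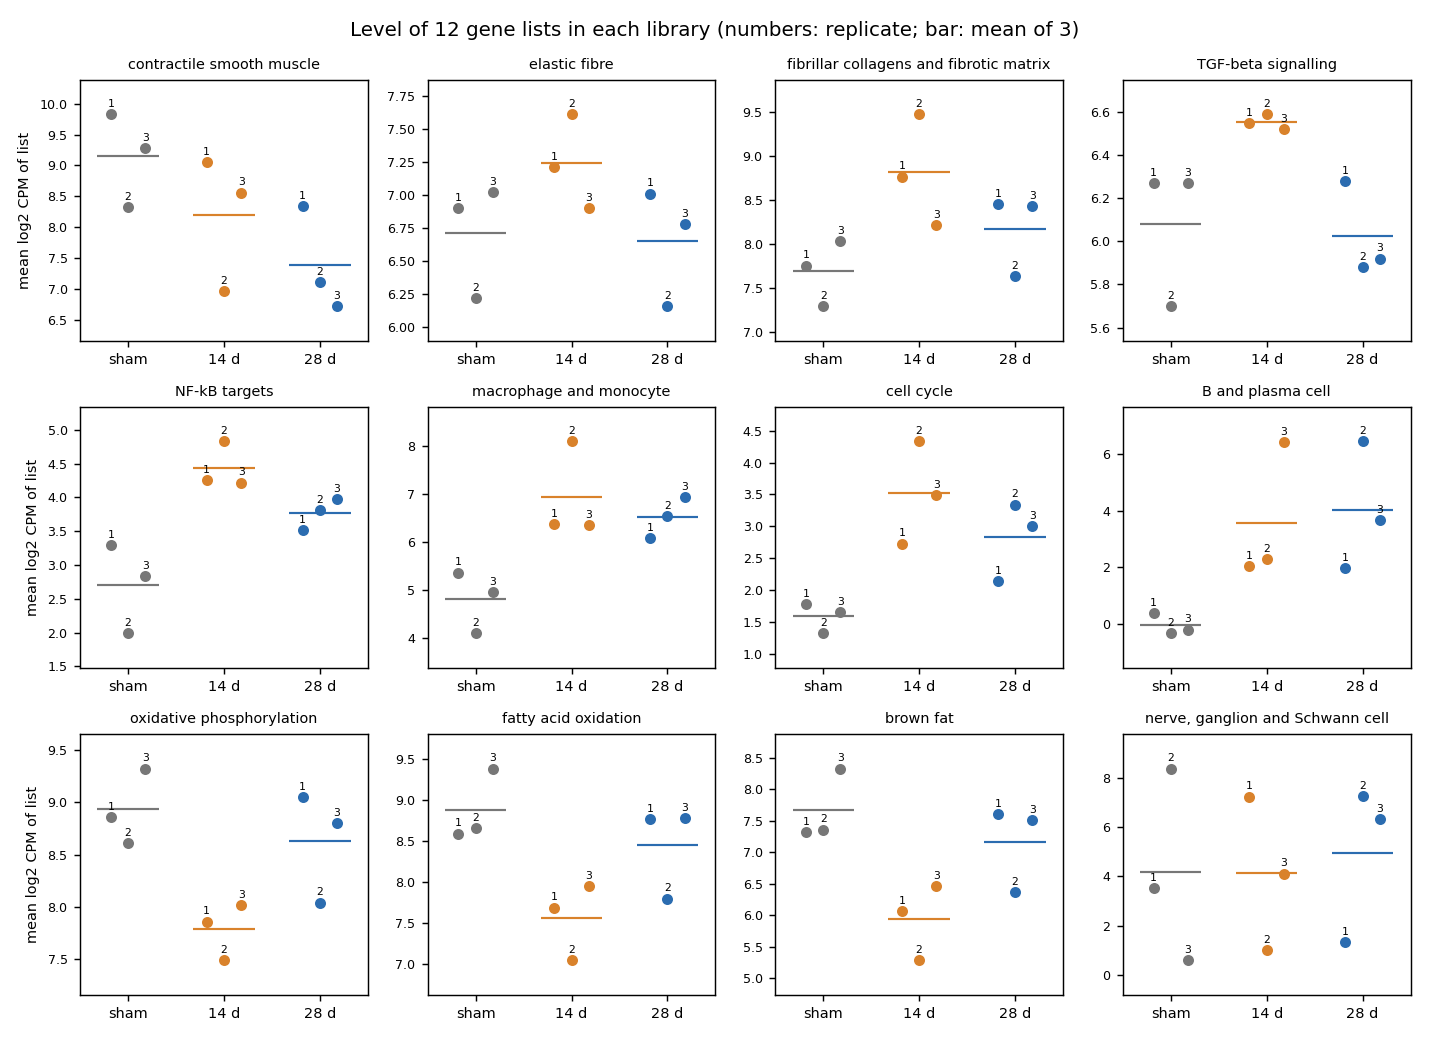
Mean log2 CPM of the tested members of 12 gene lists in each library, with the replicate number beside each point and a bar at the mean of 3. The TGF-beta and NF-kB target lists are lower in every 28-day library than in every 14-day library, oxidative phosphorylation is higher, and the macrophage, B cell and nerve lists spread more within a time than between times.

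Energy metabolism went opposite to the collagen genes, low at 14 days and nearer to sham at 28 days. All 24 genes of oxidative phosphorylation, the subunits of the mitochondrial respiratory chain and ATP synthase, were above 0 from 14 to 28 days, with a median of 0.89 and a range of 0.48 to 1.21. In 13 of the 24 all 28-day libraries lay above all 14-day libraries, which is 54.2% against 4.35% of all genes. From sham to 14 days all 24 had 14-day libraries below all sham libraries, against 13.5% of all genes, with a median of -1.17, and the median from sham to 28 days was -0.29. The list level was 8.86, 8.61 and 9.32 log2 CPM in sham, 7.86, 7.49 and 8.02 at 14 days and 9.05, 8.04 and 8.80 at 28 days. The median ran from 0.64 to 1.14 over the alternative settings and was 0.99 without the muscle-rich 28-day replicates 1 and 2.

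Cox5a, a subunit of cytochrome c oxidase, had 197, 174 and 219.7 CPM at 14 days and 529, 270.2 and 428 at 28 days (sham 398, 352 and 597, log2 1.05 ± 0.31, Entrez 12858, GRCm38.p6 chromosome 9, 57517328 to 57532427). Cycs, which encodes cytochrome c, had 332, 219 and 371 CPM at 14 days and 953, 423 and 754 at 28 days (sham 871, 693 and 1190, log2 1.21 ± 0.37). In both genes every 28-day library was above every 14-day one, replicate 2 being the lowest of the 28-day libraries and below sham. Of the 24, DESeq2 called 0 (0.8% of all genes). Outside the list, and named after its values were seen, Chchd10, a protein of the mitochondrial cristae, was called higher by DESeq2 at a log2 fold change of 1.44 ± 0.41.

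Fatty acid oxidation had 18 of 19 members above 0 (median 0.99) after a median of -1.41 from sham to 14 days, when 18 of the 19 lay below all sham libraries. Without overlap between the times was 1 of them, Acadm (5.3%, against 4.35% of all genes). Fatty acid synthesis had 12 of 12 above 0 (median 1.12, or 1.75 without the nerve-rich libraries) after -1.29, and 0 without overlap. Acadm, the medium-chain acyl-CoA dehydrogenase, had 818, 911 and 1670 CPM in sham, 448, 238 and 538 at 14 days and 1032, 544 and 1176 at 28 days (log2 1.17 ± 0.45). Scd1, which makes monounsaturated fatty acids, had 10230, 15490 and 27480 CPM in sham, 11080, 3118 and 8164 at 14 days and 18050, 7296 and 20540 at 28 days (log2 1.04 ± 0.63), and its 28-day replicate 2 lay below 14-day replicates 1 and 3. Ppara, the nuclear receptor that switches on fatty acid oxidation, had 74.4, 94.6 and 157 CPM in sham, 36.9, 14.1 and 31.1 at 14 days and 117, 61.1 and 113 at 28 days (Entrez 19013, GRCm38.p6 chromosome 15, 85734910 to 85806851). All its 28-day libraries lay above all its 14-day libraries, by 1.82 ± 0.45 on the log2 scale (edgeR adjusted p = 0.77, DESeq2 adjusted p = 0.0139).

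Brown fat genes followed the same course, with 12 of 12 above 0 and a median of 1.29 after -1.82 from sham to 14 days. The times did not overlap in 4 (33.3%, against 4.35% of all genes), Ppara, Cox7a1, Cox8b and Otop1. Ucp1, the uncoupling protein that makes heat in brown fat, had 2359, 2895 and 6133 CPM in sham, 772, 652 and 1750 at 14 days and 2981, 1088 and 2988 at 28 days (log2 1.15 ± 0.59). The times overlapped in Ucp1, through 28-day replicate 2. Cox7a1, an oxidase subunit of muscle and brown fat, had 417, 155 and 372 CPM in sham, 40.9, 48 and 74.3 at 14 days and 274, 94.2 and 173 at 28 days (log2 1.73 ± 0.50). Adipoq, the hormone adiponectin of all fat cells, had a log2 fold change of 0.57 ± 0.54, at 860.3, 230.3 and 955 CPM at 14 days and 1104, 623 and 1308 at 28 days (sham 1341, 748 and 818). At each time replicate 2 was the lowest library in the oxidative phosphorylation list and also in the brown fat list (6.06, 5.28 and 6.46 at 14 days, 7.61, 6.37 and 7.51 at 28 days, sham 7.32, 7.36 and 8.33). The part of fat in the values of the metabolic lists was not tested.

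Glycolysis gave 15 of 17 members above 0 (median 0.55). Without overlap, 4 lay above (Aldoa, Gpi1, Pgk1 and Pdk4, 23.5%, against 4.35% of all genes) and 1 below (5.9%, against 5.71%). Aldoa, aldolase A, had 2055, 1877 and 1656 CPM at 14 days and 5254, 2308 and 3550 at 28 days (sham 2670, 3369 and 4227, log2 0.99 ± 0.36). The member below was Slc2a1, the glucose transporter GLUT1, at 41.1, 116 and 47.2 CPM at 14 days and 31.2, 36 and 32.6 at 28 days (sham 45.7, 30.5 and 33.8, log2 -1.03 ± 0.38). Pdk4, a kinase that shuts off pyruvate dehydrogenase, had 151, 112 and 194 CPM at 14 days and 657, 317 and 441 at 28 days (sham 239, 488 and 998). Tbc1d4, which controls the movement of the glucose transporter GLUT4, had 40.2, 33.9 and 40.9 CPM in sham, 27.2, 23.5 and 32.8 at 14 days and 49.5, 47.4 and 50.3 at 28 days (log2 0.82 ± 0.16, DESeq2 adjusted p = 0.000568). Every 14-day library was below every sham library and every 28-day library above.

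Endothelial genes had 14 of 18 members above 0, with a median of 0.27 (-0.04 to 0.52 over the alternative settings). The median was -0.04 without 28-day replicate 1 and -0.01 without 28-day replicates 1 and 2. The times did not overlap in 3 (16.7%, against 4.35% of all genes), Kdr, Cldn5 and Robo4, each highest in 28-day replicate 1. Kdr, the VEGF receptor 2, had 67.7, 81.8 and 99.3 CPM in sham, 99.8, 72.1 and 80.3 at 14 days and 226, 136 and 147 at 28 days (Entrez 16542, GRCm38.p6 chromosome 5, 75932827 to 75979072), a log2 fold change of 1.01 ± 0.25 (edgeR adjusted p = 0.77, DESeq2 adjusted p = 0.0402). Sham and 14 days overlapped, and each 28-day library lay above both. Cldn5, of endothelial tight junctions, had 58, 50.6 and 54.5 CPM at 14 days and 117, 88.9 and 64.4 at 28 days (sham 39.6, 34.1 and 39.2, log2 0.73 ± 0.21), and Robo4, a receptor that stabilises vessels, had 50.9, 54.5 and 41.8 CPM at 14 days and 114, 64.5 and 63.4 at 28 days (sham 39.8, 34.1 and 32.8, log2 0.71 ± 0.25). Pecam1, carried by endothelium in general, overlapped in all groups (461, 199.7 and 451 CPM at 14 days and 487, 322 and 282 at 28 days, sham 379.8, 263 and 362). Depp1, a gene induced by FOXO factors and, among genes with a mean of at least 10 CPM, the gene above 0 with the smallest p, had 25.4, 29.5 and 23 CPM at 14 days and 83, 64.6 and 49.2 at 28 days (sham 22.8, 31.7 and 38.1, log2 1.33 ± 0.25, DESeq2 adjusted p = 0.00333).

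Skeletal muscle genes had the largest median of the 49 lists, and differed by library. Of 20 members, 20 were above 0 with a median of 8.75 (8.75 also with the 1 gene at 0 counts in all 14-day libraries held at the 3-count floor), 16 did not overlap (4.35% of all genes), and DESeq2 called 19, all but Pygm (0.59% of all genes). The list level was 1.72, 0.21 and 0.62 log2 CPM in sham, 1.15, -0.27 and 0.51 at 14 days and 9.79, 8.30 and 2.96 at 28 days. In 28-day replicate 1 the members had 248 to 4700 CPM, in replicate 2 77.8 to 1584 CPM and in replicate 3 0.835 to 43.8 CPM. Without replicates 1 and 2 the median was 2.80.

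Acta1, skeletal muscle actin, had 6.31, 0.432 and 2.51 CPM at 14 days and 4700, 1584 and 35.8 at 28 days (sham 2.34, 1.5 and 0.979). Atp2a1, the calcium pump of fast fibres, had 1.33, 0.576 and 0.475 CPM at 14 days and 2820, 879 and 19.1 at 28 days, and Ckm, muscle creatine kinase, 4.62, 0.36 and 0.95 CPM at 14 days and 2125, 761 and 13.3 at 28 days. Myh4, the myosin of the fastest fibres, had 669, 333 and 1.67 CPM at 28 days and no count in any sham or 14-day library, where 3 counts would have given 0.204 to 0.32 CPM. In these 4 genes 28-day replicates 1 and 2 stood far above every other library. Mylpf, Tnnt3, Tnnc2, Tnni2, Myh1, Myh2, Neb and Pvalb, the remaining genes above 0 with the smallest p, had the same order of 28-day libraries, with replicate 1 the highest and replicate 3 the lowest. The source of these transcripts was not tested.

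**Figure D3:**
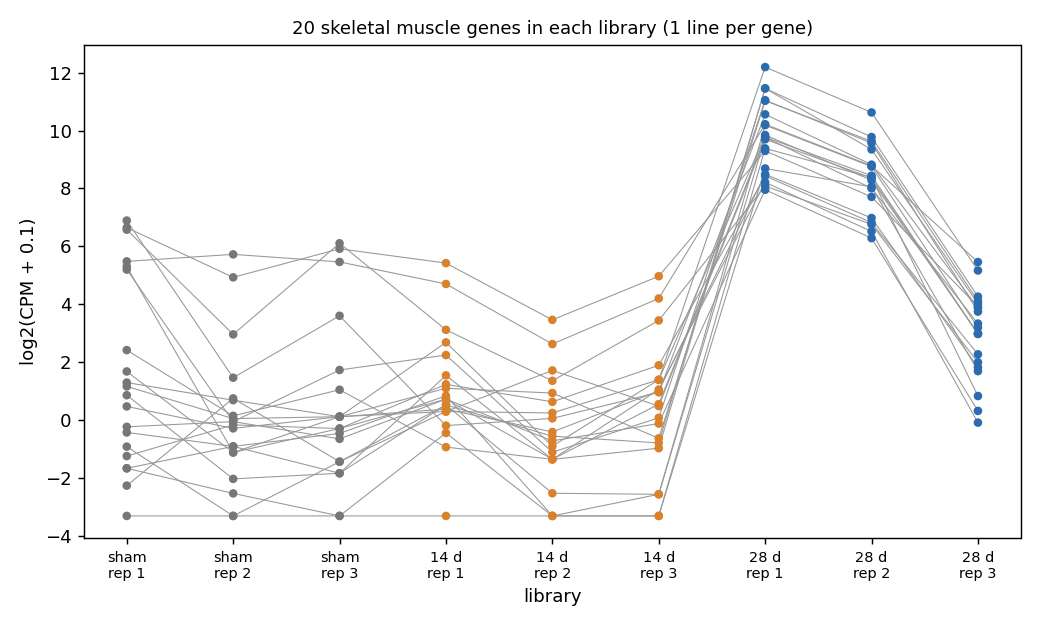
log2(CPM + 0.1) of the 20 skeletal muscle genes in each of the 9 libraries, 1 line per gene. All 20 genes are at their highest in 28-day replicate 1 (248 to 4700 CPM), lower in replicate 2 and far lower in replicate 3 (0.835 to 43.8 CPM).

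Nerve genes also differed by library. The list level was 3.53, 8.37 and 0.59 log2 CPM in sham, 7.23, 1.02 and 4.11 at 14 days and 1.32, 7.24 and 6.31 at 28 days, so each group held high and low libraries. Dbh, the enzyme that makes noradrenaline, had 720.2, 0.072 and 47.9 CPM at 14 days and 0.547, 833 and 387 at 28 days. Agtr1a, a receptor for Ang II, had its highest value of each group in sham replicate 2, 14-day replicate 1 and 28-day replicate 2, which were also the highest of each group in nerve genes (4.69, 172 and 9.08 CPM in sham, 51.1, 3.89 and 8.89 at 14 days and 16.2, 86.8 and 46.5 at 28 days). Leaving those 3 libraries out, DESeq2 called 624 genes and edgeR 0 (lowest adjusted p = 0.352). Pdgfra, of fibroblasts, overlapped in all groups (57.8, 82.7 and 46.6 CPM at 14 days and 55.9, 37.5 and 67 at 28 days, sham 28.9, 36.2 and 54.8).

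The 49 lists were sorted by the size of their median differences from sham at the 2 times, with no test, and the comparisons share libraries. A list with a median of at least 0.5 in size at 14 days was said to have subsided where the 28-day median was under 0.5 of it, persisted from 0.5 to 1.5, and grown above 1.5. By this rule 15 lists subsided, 21 persisted, 1 grew (contractile smooth muscle), 2 were late (skeletal muscle, and adrenal and kidney with 4 tested genes), and 10 differed little at both times. Those that subsided were collagens, collagen processing, proteases, cytoskeleton, lipid-laden macrophage genes, coagulation, immediate early genes, heme and iron handling, cartilage and bone genes, and the 6 lists of fat and energy metabolism, whose medians had been below sham. Of these 6, the adipocyte and fatty acid synthesis lists overlapped sham in level at 14 days. They had 5 of 16 and 4 of 12 genes below all sham libraries (13.5% of all genes). Without 14-day replicate 2 the difference between the times turned above 0 in lipid-laden macrophage genes (0.38), heme and iron handling (0.20, from -0.71) and cartilage and bone genes (0.15, from -0.74), and in immediate early genes it went from -0.41 to -0.20. Those that persisted above sham included macrophage, T cell, B cell, MHC class II, interferon, complement, inflammasome, chemokine, NF-kB and cell cycle genes. Those that persisted below sham by their medians included smooth muscle ion channel, vasoactive receptor, clock and mast cell genes. The clock genes summed to 2131 CPM in sham replicate 1, against 563.6 and 741.1 in replicates 2 and 3. Of 16 clock genes, 1 lay below all sham libraries at 14 days (13.5% of all genes) and 2 at 28 days (9.44%). The vasoactive list level was 5.20 in 14-day replicate 1, above all sham libraries (4.93, 4.99 and 4.87). Cardiac muscle and nerve genes also met the rule for lists that persisted below sham, but each through 1 sham library. The cardiac genes summed to 929 CPM in sham replicate 1, against 15.1 and 34.3 in replicates 2 and 3, and the nerve list level was 8.37 in sham replicate 2, against 3.53 and 0.59 in replicates 1 and 3. In each list 1 gene had all 28-day libraries below all sham libraries. Over 16 alternative settings, 27 of the 49 lists kept the sign of their difference between 28 and 14 days.

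**Figure D4:**
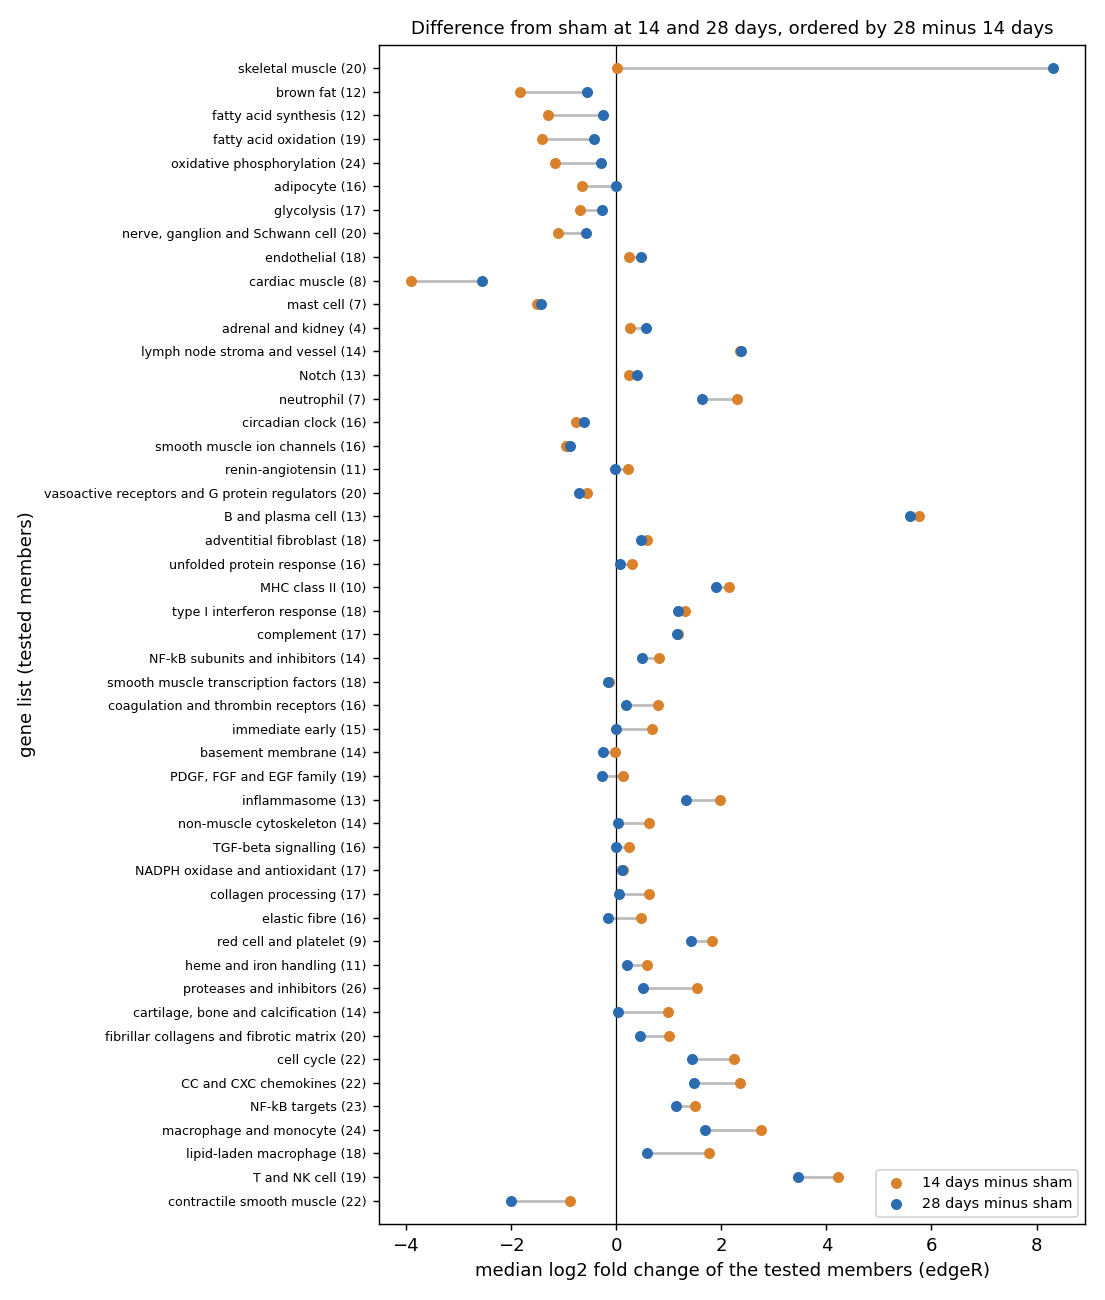
Median log2 fold change from sham of the tested members of 49 gene lists at 14 days (orange) and 28 days (blue), ordered by the difference between 28 and 14 days, with the number of tested members in parentheses. Fat and energy lists are below 0 at 14 days and closer to it at 28 days. The fibrillar collagen, collagen processing and protease lists are above 0 at 14 days and closer to it at 28 days. Contractile smooth muscle is farther from 0 at 28 days (-2.0) than at 14 days (-0.88).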

How the data were processed

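RNA-seq of mRNA libraries (an MGIEasy mRNA kit, per the labels' protocols) gave 1 table per library. The authors deposited expected counts per gene, not whole in 9.77% to 11.04% of genes. HISAT2 2.2.1, Bowtie2 2.4.5, RSEM 1.3.1 and GRCm38.p6 are named in the submitters' processing notes, and strandedness is not given in the sources used here, so overlapping and antisense genes cannot be told apart. Libraries were grouped by title. Counts were rounded and joined by Entrez Gene ID, and 18775 of 18830 IDs matched a symbol in the RefSeq table.

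Genes were filtered with filterByExpr, scaled by TMM and tested with edgeR 4.0.16 (quasi-likelihood, all 9 libraries, Benjamini-Hochberg) in R 4.3.3, with limma 3.58.1 and DESeq2 1.42.0 as alternatives. The scripts were tested on simulated data. Values after ± are standard errors of edgeR's log2 fold changes. List levels are mean log2 CPM with a prior count of 2. Other settings were RLE factors, other filters, the 6 Ang II libraries alone, a replicate block and libraries left out.

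Members and gene lists were chosen with earlier results of these data known. Genes named are the 12 each way with the smallest p (mean of at least 10 CPM), the 4 of each list with the smallest p, and a set of 59 genes. Others, named to complete a count or as DESeq2 calls, were chosen after their values were seen. Of 796 list genes 783 were in the tables. Some genes covered by these rules are not reported here.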

Additional observations from a re-analysis of the deposited data

Results flagged for a closer look

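In 2 genes of those named, the 14-day libraries all lay on the opposite side of the sham libraries from the 28-day libraries. Tbc1d4 had 27.2, 23.5 and 32.8 CPM at 14 days, below the sham values of 40.2, 33.9 and 40.9, and 49.5, 47.4 and 50.3 CPM at 28 days, above them, with a log2 fold change of 0.82 between the times. Wdr1 had 280, 325 and 263 CPM at 14 days, above the sham values of 261, 206 and 234, and 185, 204 and 194 CPM at 28 days, below them, with a log2 fold change of -0.57. The difference between the 2 effects against sham was not tested. Such an order was found in 6 of the 14741 tested genes.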

How the results depend on the processing

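edgeR called 0 genes between 28 and 14 days under each of the 18 other settings tried with it or with limma-voom. The lowest adjusted p of a setting was 0.0597 without 28-day replicate 3, 0.113 without 14-day replicate 2 and 0.185 with the replicate number as a block. Deviations of same-numbered 14-day and 28-day libraries from their group means correlated at -0.42, -0.44 and -0.23 across genes. Deviations within a group of 3 are tied to each other, so these values do not settle whether the numbers pair the libraries. The block is kept only as 1 of the settings. DESeq2 called 118. Chosen after seeing the data, its other fits called 59 to 214 genes with each library left out, 624 without the 3 libraries richest in nerve genes, 5 without 28-day replicates 1 and 2, and 70 with a filter of 5 CPM in 3 libraries. The cause of these shifts was not tested. The stricter filter also tests fewer genes. The fit on FPKM values was not run, since the files used here hold counts.

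Of 154 genes named in the text, 24 changed sign under some setting. With each library left out in turn the log2 fold change from 14 to 28 days ran over these ranges: Adgre1 -1.40 to 0.81, Cd3g -2.11 to 0.45, Cd68 -1.93 to 0.33, Cd79a -2.70 to 3.43, Col1a1 -1.18 to 0.17, Col3a1 -0.88 to 0.01, Dbh -0.40 to 4.08, Des -0.11 to 1.58, H2-Aa -0.57 to 0.11, Hmox1 -2.85 to 2.09, Lyve1 -0.14 to 0.86, Mmp12 -1.72 to 0.91, Mmp2 -0.77 to 0.60, Mmp9 -0.27 to 1.19, Nfkbia -0.18 to 0.09, Pdgfra -0.42 to 0.04, Pecam1 -0.32 to 0.16, S100a8 -0.34 to 0.84, Spp1 -2.02 to 1.04, Tpm1 -0.75 to 0.57, Tpm2 -0.91 to 0.73, Trem2 -1.78 to 0.80. Other settings that turned a sign put it with the replicate block Cd79a at 0.23, Dbh at -0.03 and Pecam1 at 0.03, with limma-voom Cd79a at 0.39, Pecam1 at 0.06, Tpm1 at -0.08 and Tpm2 at -0.10, without the 3 libraries richest in nerve genes Mmp9 at -0.07, Pecam1 at 0.18 and S100a8 at -0.52, and without 28-day replicates 1 and 2 Des at -1.65, Irf7 at 0.06, Pdgfra at 0.10, Pygm at -0.91, S100a8 at -0.76, Tpm1 at -1.62 and Tpm2 at -2.32. The number of lists with a median below 0 was 32 of 49, and 28 to 36 over the settings. With 3 libraries a group and a biological coefficient of variation of 51.3%, the spread between libraries limits the precision, and an exact test of 3 against 3 libraries cannot go below p = 0.1.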
